A study of Mus musculus with 4 samples.

Results

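The resident and recruited macrophage genes of the heart were examined as 10 genes taken by symbol from the 32285 genes of the deposited matrices. Lyve1, Timd4, Folr2, Mrc1, Cd163 and F13a1 stood for resident macrophages, Csf1r and Mertk for macrophages in general, Ccr2 for recruited monocytes and their progeny, and Trem2 for lipid-associated macrophages. These groupings are labels, and whether a gene was confined to the cells of its group was not tested. All 10 had at least 1 UMI (unique molecular identifier, a count of captured RNA molecules) in every library. Levels are in CPM, the UMIs of a gene per 1000000 UMIs of its library. The data were 4 droplet libraries of left ventricle from male C57BL/6J mice, namely young sham and young I/R, followed by aged sham and aged I/R, with 1 library each. Where 4 values stand in a row they follow that order. Young mice were 3 to 5 months old and aged mice 24 to 26 months old. In the I/R groups the left anterior descending artery (LAD) was occluded for 45 minutes, and the tissue was taken after 24 hours of reperfusion. The sham groups had no ischemia; their sample labels read healthy tissue, whereas the study's methods describe sham operations. All mice were described as wild type, no group carried another allele or agent, and the number of mice behind each library is not given in the sources used here. The labels give nuclear RNA as the molecule, while the study describes single cells. With 1 library per condition no difference had a replicate check, and each interval below is a 95% interval for counting error only.

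In young adult mice, many resident macrophages of the heart are seeded before birth and renew themselves with little input from blood. They take up dying cells and debris, and they are commonly recognised by the hyaluronan receptor Lyve1, the phosphatidylserine receptor Timd4 and the folate receptor Folr2. After an infarct, monocytes that carry Ccr2, the receptor for the chemokine Ccl2, enter the tissue and can become macrophages. Csf1r, the receptor for the growth factors Csf1 and Il34, is needed by nearly all macrophages, and Mertk is the tyrosine kinase receptor by which they engulf apoptotic cells.

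Depth differed between the libraries. They held 91124 to 102883 barcodes and 25836175 UMIs in sham and 39673199 in I/R of young hearts, 41356670 in sham and 66767829 in I/R of aged hearts, with medians of 244, 374, 391 and 675 UMIs per barcode. Barcodes were not called as cells, and many of them may hold no cell. The sums and pairs below are over all barcodes, and RNA from outside cells was not separated from them. Between 7.44% and 7.92% of the barcodes of a library had a sequence that was also in another library. Malat1, a nuclear RNA, was at 73437, 22223, 28796 and 43299.6 CPM, and mitochondrial genes held 10.0%, 14.1%, 15.6% and 9.98% of the UMIs. Marker RNA of the labelled cell types was present in every library, while cells of each type were not called. In each library 10 cardiomyocyte genes summed to at least 71910 CPM and 11 blood endothelial genes to at least 1402. The sums of 9 fibroblast genes and 13 macrophage anchor genes were at least 507 and at least 176. The anchors were general macrophage, myeloid and leukocyte genes such as C1qa, Cd68, Adgre1 and Ptprc, and none is a member.

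Positions are given on the mouse genome build GRCm38. The 2 members that most often shared a barcode were Mrc1, at chr2:14229392-14332057 on the plus strand, and F13a1, at chr13:36867178-37050244 on the minus strand; both are protein-coding genes that span more than 100 kb. Timd4 lies at chr11:46810800-46844332 on the plus strand. Of the other members, Lyve1 is at chr7:110850607-110863239, Folr2 at chr7:101839988-101857194, Cd163 at chr6:124304656-124330527, Mertk at chr2:128698956-128802894, Ccr2 at chr9:124101950-124113557 and Trem2 at chr17:48346401-48354147. Antisense genes overlap Folr2, F13a1 and Mertk, the gene Hmgxb3 overlaps Csf1r on the opposite strand, and the microRNA gene Mir511 lies within Mrc1. Where strand was not used in counting, reads of such neighbours could not be told apart.

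The sequences before the starts of Mrc1 and F13a1 are shown because these genes were found together in all 4 libraries, and that of Timd4 because it was the member furthest below sham in the young heart. Each is 250 bases from RefSeq on GRCm38.p6, read 5′ to 3′ on the strand of the gene and ending 1 base before the RefSeq start. Capitals mark the letters GAGGAA, the core bound by the myeloid factor PU.1, and TGCTGA, a half-site of the MAF factors, on either strand.
Mrc1, chr2:14229164-14229413, plus strand: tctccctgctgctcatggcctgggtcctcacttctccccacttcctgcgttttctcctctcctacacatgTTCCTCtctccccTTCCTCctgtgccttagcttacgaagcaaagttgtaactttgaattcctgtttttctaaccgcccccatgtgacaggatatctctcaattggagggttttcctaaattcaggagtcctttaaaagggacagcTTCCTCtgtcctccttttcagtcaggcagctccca
F13a1, chr13:37050245-37050494, minus strand: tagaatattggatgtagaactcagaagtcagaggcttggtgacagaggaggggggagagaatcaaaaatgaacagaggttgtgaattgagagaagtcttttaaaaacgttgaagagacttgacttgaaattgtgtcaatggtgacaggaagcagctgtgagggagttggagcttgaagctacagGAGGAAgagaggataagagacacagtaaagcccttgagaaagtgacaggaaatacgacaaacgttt
Timd4, chr11:46810549-46810798, plus strand: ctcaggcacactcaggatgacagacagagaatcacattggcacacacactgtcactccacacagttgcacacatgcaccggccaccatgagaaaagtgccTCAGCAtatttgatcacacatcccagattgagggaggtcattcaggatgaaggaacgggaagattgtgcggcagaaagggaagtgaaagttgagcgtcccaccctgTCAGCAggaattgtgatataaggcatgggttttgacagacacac
The window of Mrc1 held 3 matches to GAGGAA and that of F13a1 held 1, all of them as TTCCTC on the strand shown in Mrc1. The window of Timd4 held 2 matches to TGCTGA, both as TCAGCA. Among the 8 members with a RefSeq window, 3 (Mrc1, F13a1 and Trem2) held GAGGAA and 2 (Timd4 and Folr2) held TGCTGA. Of all 32851 windows of this length, 23.3% held GAGGAA and 16.1% held TGCTGA, so that a match is a description and not a sign of binding. Lyve1 and Csf1r had no window.

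The first comparison asked how the members stood after I/R in the young heart. In that comparison 1 of the 10 members was at least 1.5-fold higher in young I/R with a counting interval leaving out no change, and 5 were at least 1.5-fold lower. Over the 15465 genes compared, 5.44% were higher and 43.7% lower by the same rule, so that the share of lower members was close to that of the whole transcriptome. The member that was higher was Ccr2. Those lower were Timd4, Folr2, F13a1, Csf1r and Mertk. The median log2 ratio was -0.59 for the members and -0.51 for all genes. The split of the background itself depended on scaling, since size factors (scaling by the median ratio of genes in place of the library total) gave 2654 higher and 3491 lower genes in place of 842 and 6752, and shifted every log2 ratio of the comparison by 0.47.

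Among the resident genes Timd4, which binds phosphatidylserine on apoptotic cells, had the lowest values. It was found at 2.21 CPM in sham (57 UMIs) and 0.504 in I/R (20 UMIs) of young hearts, 1.31 in sham and 1.38 in I/R of aged hearts. Young I/R was the low library, and its interval (0.308 to 0.779) did not overlap any of the others. The log2 ratio (I/R over sham) in young hearts was -2.13 (-2.94 to -1.37), and it was -1.66 with size factors. In aged hearts it was 0.08 (-0.42 to 0.59).

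Folr2, the folate receptor beta, was at 6.00 CPM in sham and 2.95 in I/R of young hearts, 8.0 in sham and 5.23 in I/R of aged hearts. It was lower after I/R at both ages, by a log2 ratio of -1.02 (-1.38 to -0.67) in young and -0.61 (-0.84 to -0.39) in aged hearts. Size factors gave -0.56 and -0.71. Folr2 was the single member at least 1.5-fold lower in aged I/R than in aged sham, where 8.14% of 16761 genes were lower. That call was lost without the barcode sequences found in more than 1 library, and at a fold of 2.

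Lyve1 was at 14.8 CPM in sham and 14.1 in I/R of young hearts, 11.2 in sham and 29.0 in I/R of aged hearts. The aged I/R library stood above the other three, which lay within 11.2 to 14.8. After I/R the log2 ratio was 1.37 (1.22 to 1.52) in aged hearts, a 2.58-fold difference, and -0.08 (-0.27 to 0.12) in young hearts. The young ratio was 0.39 (0.20 to 0.58) with size factors and 0.31 (0.12 to 0.51) per UMI of the macrophage anchors. Lyve1 is also made by lymphatic endothelium. The 5 lymphatic genes (Prox1, Flt4, Mmrn1, Pdpn and Reln) summed to 126, 75, 121 and 143 CPM, most of it Prox1, at 99.9, 42.4, 92.0 and 108 CPM. Pdpn, at 3.60, 17.0, 6.21 and 10.2, was highest in young I/R, where Prox1 was lowest. Their part in the Lyve1 values was not tested at the level of the library. Which cells made Prox1 was not tested either, so the sum may not stand for lymphatic endothelium alone.

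Cd163, the scavenger receptor for haemoglobin bound to haptoglobin, was at 14.7 CPM in sham and 11.1 in I/R of young hearts, 9.19 in sham and 20.7 in I/R of aged hearts. The aged I/R library was again the highest and aged sham the lowest. In aged hearts I/R was 2.26-fold above sham, a log2 ratio of 1.17 (1.01 to 1.34). In young hearts the log2 ratio was -0.41 (-0.61 to -0.21), which size factors turned to 0.06 (-0.14 to 0.26).

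Mrc1, the mannose receptor, was at 53.6 CPM in sham and 35.8 in I/R of young hearts, 47.4 in sham and 67.6 in I/R of aged hearts. F13a1, the catalytic A subunit of coagulation factor XIII, was at 58.7, 38.7, 51.9 and 79.3 in the same order. Both genes had their lowest value in young I/R and their highest in aged I/R, and no counting intervals of the 4 libraries overlapped for either gene. For Mrc1 the log2 ratio after I/R was -0.58 (-0.69 to -0.47) in young and 0.51 (0.43 to 0.59) in aged hearts. For F13a1 it was -0.60 (-0.71 to -0.50) and 0.61 (0.54 to 0.68). With size factors the young ratios were -0.11 for Mrc1 and -0.13 for F13a1, and the aged ratios 0.42 and 0.52.

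Csf1r was at 27.3 CPM in sham and 11.7 in I/R of young hearts, 28.3 in sham and 23.5 in I/R of aged hearts. The 2 sham libraries overlapped, and young I/R was lower than all others. Its log2 ratio after I/R was -1.22 (-1.40 to -1.05) in young and -0.27 (-0.38 to -0.16) in aged hearts, and lower also with size factors (-0.76 and -0.36). Mertk was at 22.3, 14.5, 17.2 and 24.2 CPM. It followed Mrc1 and F13a1, with log2 ratios of -0.61 (-0.78 to -0.45) in young and 0.49 (0.36 to 0.62) in aged hearts, or -0.14 and 0.40 with size factors.

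Ccr2 was the only member whose value was higher after I/R at both ages under both scalings. It was found at 8.36 CPM in sham (216 UMIs) and 12.8 in I/R (509 UMIs) of young hearts, 16.2 in sham (672 UMIs) and 23.6 in I/R of aged hearts (1576 UMIs). None of the 4 intervals overlapped, and aged sham was above young I/R. The log2 ratio after I/R was 0.62 (0.38 to 0.85) in young and 0.54 (0.41 to 0.67) in aged hearts. With size factors the values were 1.09 and 0.45. The young call was 1.53-fold, just past the fold of 1.5, and it was lost without the barcode sequences found in more than 1 library.

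Trem2, a lipid-sensing receptor that signals through Tyrobp, was at 3.02 CPM in sham (78 UMIs) and 2.80 in I/R of young hearts, 5.22 in sham and 5.50 in I/R of aged hearts. In CPM it differed between the ages and not detectably by I/R. After I/R the log2 ratio was -0.11 (-0.54 to 0.33) in young and 0.07 (-0.17 to 0.32) in aged hearts. Between the sham libraries, aged over young, it was 0.79 (0.41 to 1.18).

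**Figure D1:**
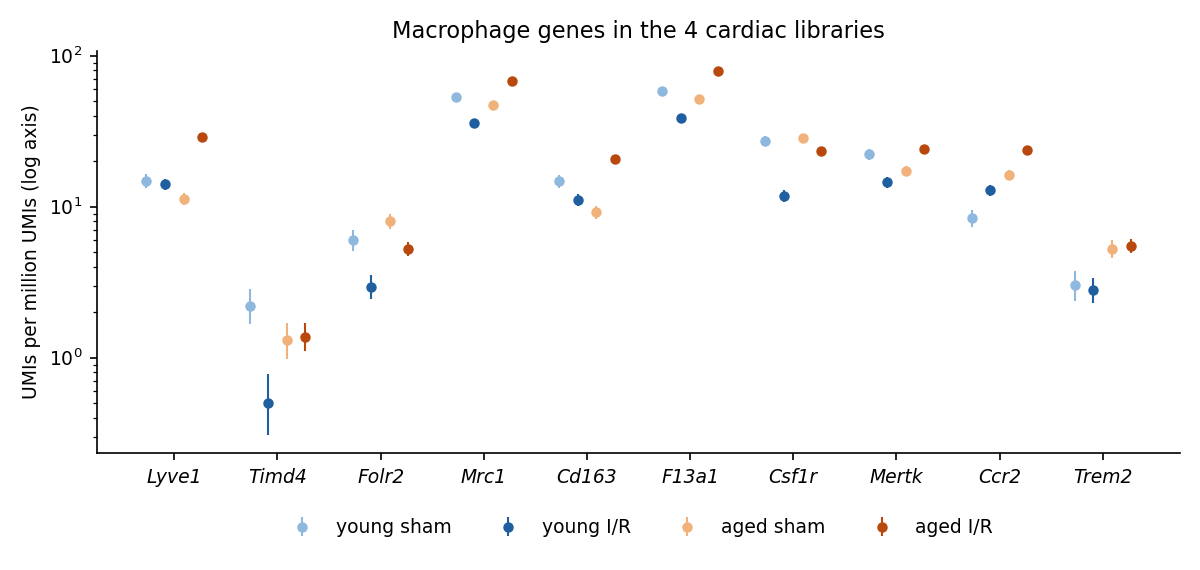
Level of each member in the 4 libraries, in CPM on a log axis, with bars for the 95% Poisson interval of the count. Timd4 had its lowest value in young I/R (0.504), Lyve1, Mrc1, Cd163 and F13a1 were highest in aged I/R, and Ccr2 ranged from 8.36 in young sham to 23.6 in aged I/R.

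In the aged heart 3 members (Lyve1, Cd163 and F13a1) were at least 1.5-fold higher after I/R, where 14.4% of all 16761 genes were, and 1 (Folr2) was lower. The median log2 ratio was 0.50 for the members and 0.09 for all genes, or 0.41 and -0.01 with size factors, under which F13a1 no longer passed. The 6 resident genes together had 150, 103, 129 and 203 CPM. Their log2 ratio after I/R was -0.54 (-0.61 to -0.48) in young and 0.66 (0.61 to 0.70) in aged hearts, and -0.07 and 0.56 with size factors. The sum of 12 other resident macrophage genes, such as Cbr2, Pf4 and Maf, had log2 ratios of -0.82 in young and 0.05 in aged hearts. In aged hearts 1 of these (Vsig4) was higher and 2 (Cd209g and Ltc4s) were lower, where 14.4% and 8.14% of all genes were.

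The responses of the ages were then set against each other as the aged minus the young log2 ratio. This difference was 1.20 (1.12 to 1.27) for the resident sum, and it left out 0 for Lyve1 (1.44), Timd4 (2.21), Mrc1 (1.09), Cd163 (1.59), F13a1 (1.21), Csf1r (0.96) and Mertk (1.10). For Ccr2 it was -0.08 (-0.34 to 0.18) and for Trem2 0.18 (-0.30 to 0.67), and both intervals included 0. For Ccr2 this depended on the scaling: per UMI of the 13 macrophage anchors the difference was -0.31 (-0.58 to -0.04), and with size factors the intervals of its young (0.85 to 1.32) and aged (0.31 to 0.58) ratios did not overlap. Folr2 lay at the limit, with 0.41 (0.00 to 0.82). The intervals cover counting error only, and without replicates the difference between the ages itself could not be tested. The median log2 ratio over all genes was -0.51 in young and 0.09 in aged hearts. The share of all genes with such a difference was not counted. Size factors raised every young log2 ratio by 0.47 and lowered every aged one by 0.09, which lowered each of these differences. Under them the aged ratio was below the young one for Folr2 (-0.71 against -0.56) and Trem2 (-0.02 against 0.36).

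Several values moved with this pattern, and their part in it was not tested. The median log2 ratio of genes spanning over 100 kb, as Mrc1, F13a1 and Mertk do, was -0.75 in young and 0.23 in aged hearts, against -0.37 and -0.02 for genes under 10 kb. Genes of 10 to 30 kb, the class of Lyve1, Folr2, Cd163 and Ccr2, had medians of -0.42 and 0.04. Malat1 had its lowest value, 22223 CPM, in young I/R, and in aged I/R it was above aged sham. In addition, fewer cells of a type, less RNA per cell and a change in RNA from outside cells cannot be told apart in summed libraries.

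Values per anchor UMI do not depend on the total of the library. They do depend on the anchors, which did not move together after I/R. Of the 13, 2 were at least 1.5-fold higher and 5 lower in young hearts, where 5.44% and 43.7% of all genes were. In aged hearts 2 were higher and 3 lower, where 14.4% and 8.14% were. The 6 resident genes had 649 UMIs per 1000 UMIs of the 13 anchors in sham (623 to 676) and 584 in I/R (562 to 607) of young hearts, 383 in sham (371 to 395) and 675 in I/R of aged hearts (661 to 690). Aged sham was the low library and the other 3 lay within 584 to 675. The log2 ratio after I/R was -0.15 (-0.23 to -0.07) in young and 0.82 (0.76 to 0.87) in aged hearts. Over the same anchors, Lyve1 had a log2 ratio of 1.53 and Cd163 of 1.34 in aged hearts, while Timd4 (-1.74), Csf1r (-0.83) and Folr2 (-0.64) were the lowest in young hearts.

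**Figure D2:**
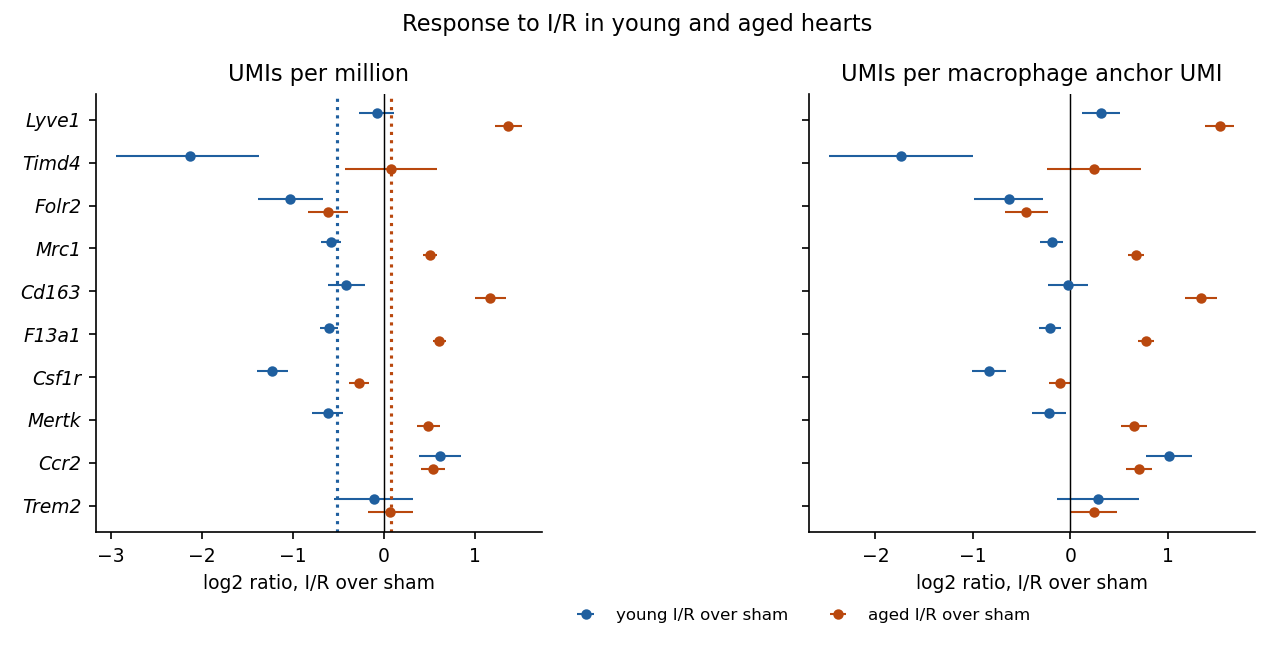
Log2 ratio of I/R over sham for each member in young and aged hearts, with 95% counting intervals, on the left as CPM and on the right per macrophage anchor UMI. Dotted lines give the median over all genes compared (-0.51 young, 0.09 aged). The aged value lies to the right of the young value for every member but Ccr2 on the left, and for every member but Ccr2 and Trem2 on the right.

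Between the sham libraries, 2 members (Ccr2 and Trem2) were at least 1.5-fold higher in aged hearts, where 7.02% of 15875 genes were, and 2 (Timd4 and Cd163) were lower, where 17.7% were. Neither lower call was left in barcodes with at least 200 detected genes. That of Cd163 was also lost with size factors, and that of Timd4 without the barcode sequences found in more than 1 library. The log2 ratio (aged over young) was 0.96 (0.74 to 1.19) for Ccr2, a 1.94-fold difference. It was -0.76 (-1.32 to -0.19) for Timd4 and -0.68 (-0.89 to -0.47) for Cd163. The anchors themselves were higher in aged sham, at 337 against 231 CPM, and 8 of the 13 (C1qa, C1qb, Fcgr1, Laptm5, Tyrobp, Fcer1g, Ctss and Aif1) passed the same rule. Per anchor UMI each of the 6 resident genes was therefore lower in aged than in young sham, although for Folr2 the interval (-0.41 to 0.15 on the log2 scale) included no change. Of the 12 other resident macrophage genes, 4 were higher in aged sham by the same rule and 0 lower, with a median log2 ratio of 0.18.

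Between the I/R libraries, all 10 members were at least 1.5-fold higher in aged than in young hearts, where 39.2% of 16491 genes were higher and 3.51% lower. The log2 ratios ran from 0.74 for Mertk to 1.45 for Timd4, with a median of 0.95 against 0.47 for all genes. With size factors 4 passed, namely Lyve1, Timd4, F13a1 and Csf1r, where 2943 of 16491 genes were higher and 2121 lower. The 13 anchors were 1.71-fold higher in the same comparison, and per anchor UMI the resident sum differed by a log2 ratio of 0.21 (0.15 to 0.27). The comparisons share libraries in pairs, and their counts are not independent of each other.

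The ratio of Ccr2 to the 6 resident genes was read within each library, as a ratio of genes and not of cells. Ccr2 had 5.57 UMIs per 100 UMIs of the 6 resident genes in sham (4.84 to 6.40) and 12.4 in I/R (11.3 to 13.7) of young hearts, 12.6 in sham (11.6 to 13.6) and 11.6 in I/R of aged hearts (11 to 12.2). Young sham was the low library, and the intervals of the other 3 overlapped. The log2 ratio after I/R was 1.16 (0.92 to 1.40) in young and -0.12 (-0.25 to 0.02) in aged hearts, a difference of -1.28 (-1.55 to -1.0). Leaving out Mrc1 or F13a1 from the sum kept young sham the lowest library. Trem2 had 2.01, 2.71, 4.05 and 2.70 UMIs per 100 resident UMIs.

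**Figure D3:**
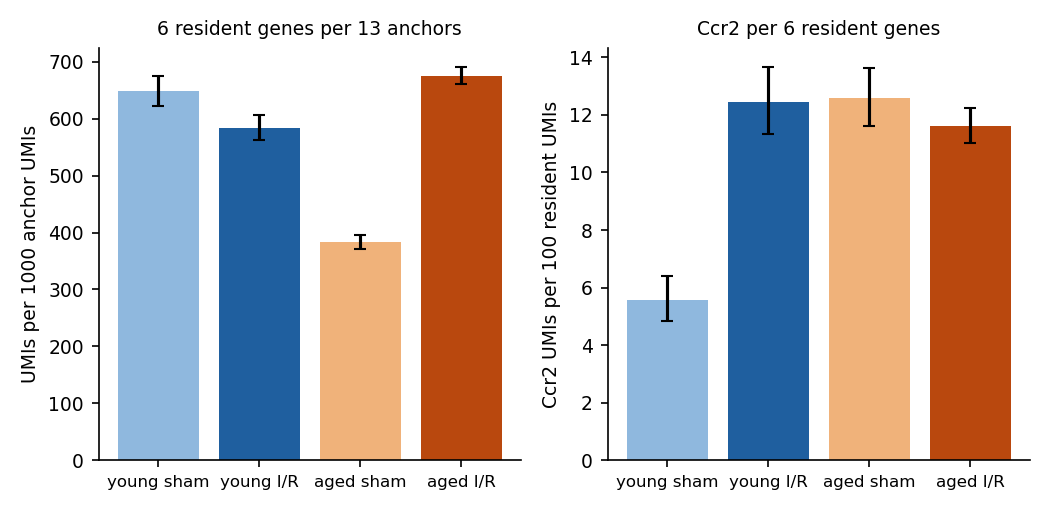
Left, UMIs of the 6 resident genes per 1000 UMIs of the 13 macrophage anchors; right, Ccr2 UMIs per 100 UMIs of the 6 resident genes, in each library with 95% counting intervals. The resident value was lowest in aged sham (383), and the Ccr2 value was lowest in young sham (5.57) and between 11.6 and 12.6 in the other libraries.

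Marker sums of neutrophils and monocytes were higher after I/R beside Ccr2. The 10 neutrophil genes (S100a8, S100a9, Csf3r and others) summed to 14.8, 103, 25 and 102 CPM, although Ly6g, Camp and Ngp stayed near 0. All 7 of those that could be compared were higher after I/R at both ages. The 9 monocyte genes summed to 124, 158, 162 and 207, and most of each sum was Lyz2 and Vcan. In young hearts 3 of the 9 were higher after I/R (Ly6c2, Chil3 and Itgam) and none (0) lower, where 5.44% and 43.7% of all genes were. In aged hearts 3 were higher, among them Chil3 and Itgam, and 1 (Plac8) was lower, where 14.4% and 8.14% were, and the median log2 ratios of the list were 0.48 and 0.10. Between the sham libraries, 5 of the 8 lymphocyte genes and 2 of the 4 dendritic cell genes compared were higher in aged hearts. None (0) was lower, where 7.02% of all genes were higher and 17.7% lower. Whether any of these cells account for part of the Ccr2 values was not tested. Among the 10 genes of lipid-associated macrophages, 5 were higher after I/R in young hearts (Spp1, Lgals3, Cd63, Ctsl and Arg1) and 2 in aged hearts (Spp1 and Arg1), with none (0) lower at either age. The median log2 ratios of this list were 0.64 and -0.0061. Which cells made these genes was not tested. Arg1 was at 0.116 CPM in sham and 9.96 in I/R of young hearts, 0.145 in sham and 18.1 in I/R of aged hearts. Spp1 was at 0.387, 17.5, 1.93 and 16.8 CPM.

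Ligands and partners of the members were read from a list of 21 genes, of which 20 could be compared. After I/R, 6 were higher and 2 lower in young hearts and 4 were higher and 1 lower in aged hearts, where 5.44% and 43.7% of all genes were higher and lower in young and 14.4% and 8.14% in aged hearts. Ccl2, the ligand of Ccr2, was at 2.79 CPM in sham and 22.6 in I/R of young hearts, 3.97 in sham and 11.3 in I/R of aged hearts. Ccl7, which also binds Ccr2, was at 3.41, 17.7, 5.34 and 9.08. Both were higher after I/R at each age, and in aged I/R both were lower than in young I/R, whereas Ccr2 was higher there.

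Csf1, the main ligand of Csf1r, was between 45.5 and 54.1 CPM in the 4 libraries and Il34 between 2.63 and 3.26, and neither passed in any comparison. Hmox1, which degrades the haem taken up through Cd163, was at 2.28, 28.2, 2.76 and 7.13 CPM. Hp, haptoglobin, was at 1.43, 7.11, 5.95 and 12.2. Both were higher after I/R at each age, with Hmox1 highest in young I/R and Hp in aged I/R. Gas6, a ligand of Mertk, was at 75.7, 50.6, 90.7 and 93.4, and Mfge8, which bridges dying cells to phagocytes, at 78.3, 124, 143 and 87.0.

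UMIs of the members were spread thinly over the barcodes. No member had more than 6 UMIs in a barcode, and barcodes with 2 or more members were 0.287% of young sham, 0.163% of young I/R, 0.366% of aged sham and 1.84% of aged I/R. In young sham F13a1 was found in 1.60% of all barcodes (1.52% to 1.68%) and in 1.14% (0.984% to 1.30%) of cardiomyocyte-rich barcodes without an anchor UMI, which should lack the gene. Barcodes with at least 2 anchor UMIs held it in 6.44% (4.03% to 9.68%). The median depths of these sets were 244, 273 and 326.5 UMIs.

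For F13a1 the cardiomyocyte-rich barcodes were closer to the whole in the other libraries. This did not hold for every member. For Mrc1 the cardiomyocyte-rich share was 1.35% against 1.48% over all barcodes in young sham, and 1.69% against 1.93% in aged sham. In aged I/R the shares for F13a1 were 5.48% over all barcodes and 5.69% in cardiomyocyte-rich barcodes, with 9.63% (8.44% to 10.9%) where at least 2 anchor UMIs were found and median depths of 675, 733 and 848.5 UMIs. For Ccr2 in aged I/R they were 1.69%, 1.67% and 3.24%. The shares of barcodes with a member are therefore read as background and not as shares of macrophages.

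Pairs of members in a barcode were set against the number expected if the genes were independent among barcodes of equal depth. In young sham 11 of the 45 pairs had a lower bound above 1, against 3 in young I/R and 5 in each aged library, and none had an upper bound below 1. Among pairs with at least 1 barcode expected, the counts were 11 of 25, 3 of 25, 4 of 36 and 5 of 43. For pairs of a member with any gene of the genome, 2.45%, 1.62%, 1.87% and 2.17% were above expectation by the same rule. That no pair of members fell below expectation was in part set by low numbers. The median number expected for a pair of members was 1.36, 1.80, 3.61 and 21.9. Pairs of members with 0 shared barcodes numbered 9, 18, 9 and 2, and even these had upper bounds that were not below 1.

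The 6 resident genes shared barcodes more often than expected in every library. Their 15 pairs were found 141 times in young sham against 60.9 expected, a ratio of 2.32 (1.95 to 2.73). The ratio was 1.35 (1.08 to 1.67) in young I/R. In aged hearts it was 1.38 (1.17 to 1.62) for sham and 1.17 (1.09 to 1.25) for I/R. Young sham stood apart from the other 3 libraries, whose intervals overlapped. Barcodes with 3 members enter several pairs, so that these intervals are somewhat too narrow.

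Mrc1 with F13a1 was the pair found most often and the only one above expectation in all 4 libraries. It was seen in 64 barcodes of young sham against 24.1 expected, a ratio of 2.66 (2.05 to 3.39), and at ratios of 1.59 (1.12 to 2.20), 1.56 (1.22 to 1.96) and 1.28 (1.15 to 1.42) in the others. Without it the resident ratio was 2.09 (1.65 to 2.62) in young sham and 1.20 (0.88 to 1.60) in young I/R. In aged hearts it was 1.25 (0.99 to 1.56) for sham and 1.11 (1.01 to 1.21) for I/R. The excess in young I/R and aged sham thus rested in part on this pair. Mrc1 with Cd163 was above expectation in young sham (2.71), young I/R (2.57) and aged I/R (1.31).

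Csf1r and Mertk were found with the resident genes more often than expected in young sham, at ratios of 2.57 (2.05 to 3.18) and 1.98 (1.49 to 2.59), and in aged sham, at 1.43 (1.17 to 1.74) and 1.45 (1.12 to 1.86). After I/R the ratio of Csf1r was 0.94 (0.56 to 1.46) in young and 1.19 (1.06 to 1.33) in aged hearts, and that of Mertk 1.26 (0.86 to 1.78) and 1.12 (0.99 to 1.25). Trem2 was above expectation with the resident genes in young sham (3.07, 1.53 to 5.50, 11 barcodes) and aged I/R (1.31, 1.04 to 1.64). Without the 1% of barcodes with the most UMIs the aged I/R ratio was 1.26 (0.99 to 1.59), which included 1.

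Ccr2 was found with the resident genes among the members as often as depth alone gives, within counting error. The ratio was 1.08 (0.52 to 1.98) in young sham and 0.82 (0.48 to 1.29) in young I/R. In aged hearts it was 1.01 (0.72 to 1.37) for sham and 1.05 (0.93 to 1.19) for I/R. In young sham it rested on 10 barcodes, and its upper bound of 1.98 lay just above the lower bound of the resident pairs (1.95). With the 13 anchors Ccr2 had a ratio of 2.25 (1.53 to 3.19) in young sham and 1.23 (1.02 to 1.48) in aged sham, and 0.94 (0.65 to 1.31) and 1.08 (0.97 to 1.20) after I/R. In young I/R Ccr2 was above expectation with Csf1r, in 8 barcodes against 2.51 expected.

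**Figure D4:**
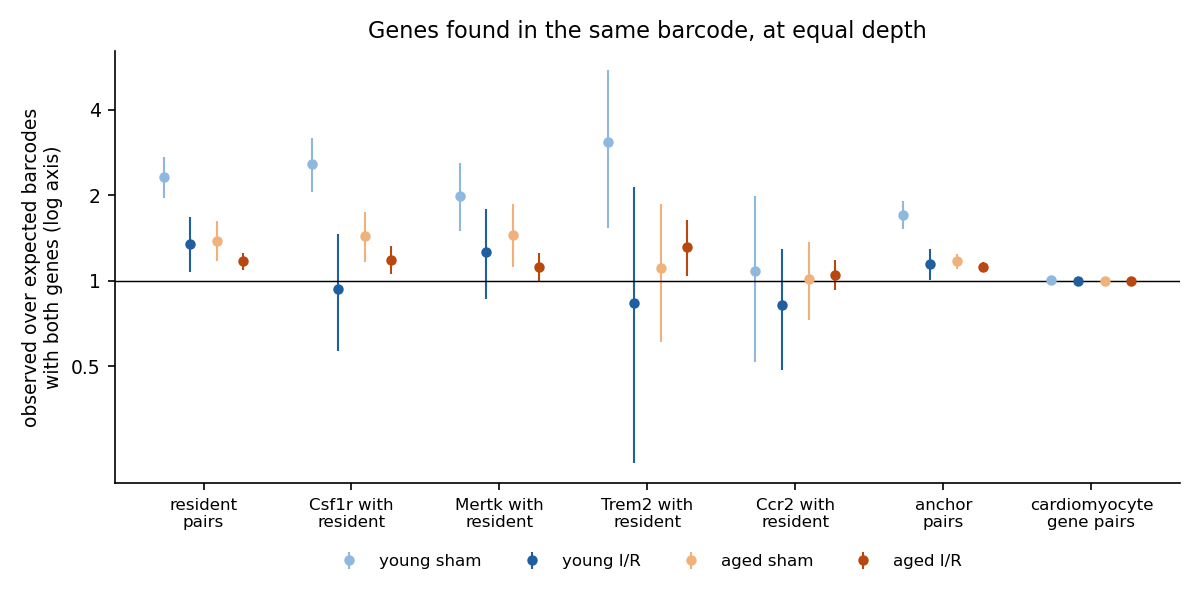
Observed over expected number of barcodes with both genes, at equal depth, on a log axis with 95% Poisson intervals, for pairs of resident genes, for 4 other members with the resident genes, and for pairs of anchors and of cardiomyocyte genes. The resident pairs lay above 1 in every library (2.32 to 1.17). The intervals of Ccr2 with the resident genes included 1 in every library. Cardiomyocyte gene pairs lay at 1.0, where genes found in most barcodes leave limited room above 1.

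The same measure in other lists gave its scale. Pairs of anchors had ratios of 1.70, 1.14, 1.17 and 1.12, and pairs of fibroblast genes 1.31, 1.12, 1.10 and 1.06. Pairs of cardiomyocyte genes were at 1.0 throughout, but these genes were in so many barcodes that their ratio had limited room above 1. Pairs of neutrophil genes had higher ratios than the resident genes in both sham libraries, at 6.54 (1.78 to 16.7, 4 pairs found) in young and 2.56 (1.28 to 4.57, 11 pairs found) in aged hearts, with intervals that overlapped those of the resident pairs; after I/R they had 1.36 and 1.29. Pairs of lymphatic genes were at 1.78, 0.84, 1.10 and 1.08, and pairs of monocyte genes at 0.54 (0.32 to 0.85), 1.07, 0.95 and 1.05. The anchors and the fibroblast genes, like the resident genes, had their highest value in young sham, the library with the fewest UMIs per barcode.

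Barcodes with any resident gene were then compared with the marker lists. The resident genes were found with the anchors at ratios of 1.70 (1.54 to 1.87), 1.11 (0.99 to 1.24), 1.15 (1.07 to 1.23) and 1.06 (1.02 to 1.10), and with 12 other resident macrophage genes, such as Cbr2, Pf4 and Maf, at 1.65, 1.12, 1.13 and 1.09. With fibroblast genes the ratio was between 0.98 and 1.03, and with blood endothelial genes between 0.99 and 1.01. Lyve1 with the lymphatic genes had ratios of 0.87 (0.46 to 1.49), 1.21 (0.75 to 1.85), 0.98 (0.63 to 1.44) and 1.03 (0.89 to 1.18). Most UMIs of the lymphatic list were Prox1, and which cells made that gene was not tested. Every library held UMIs of cardiomyocyte genes in nearly all barcodes, so that a ratio with that list says little. Ccr2 with the 9 monocyte genes had ratios of 0.91, 1.19, 1.0 and 1.19, of which the last left out 1 (1.05 to 1.33).

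**Figure D5:**
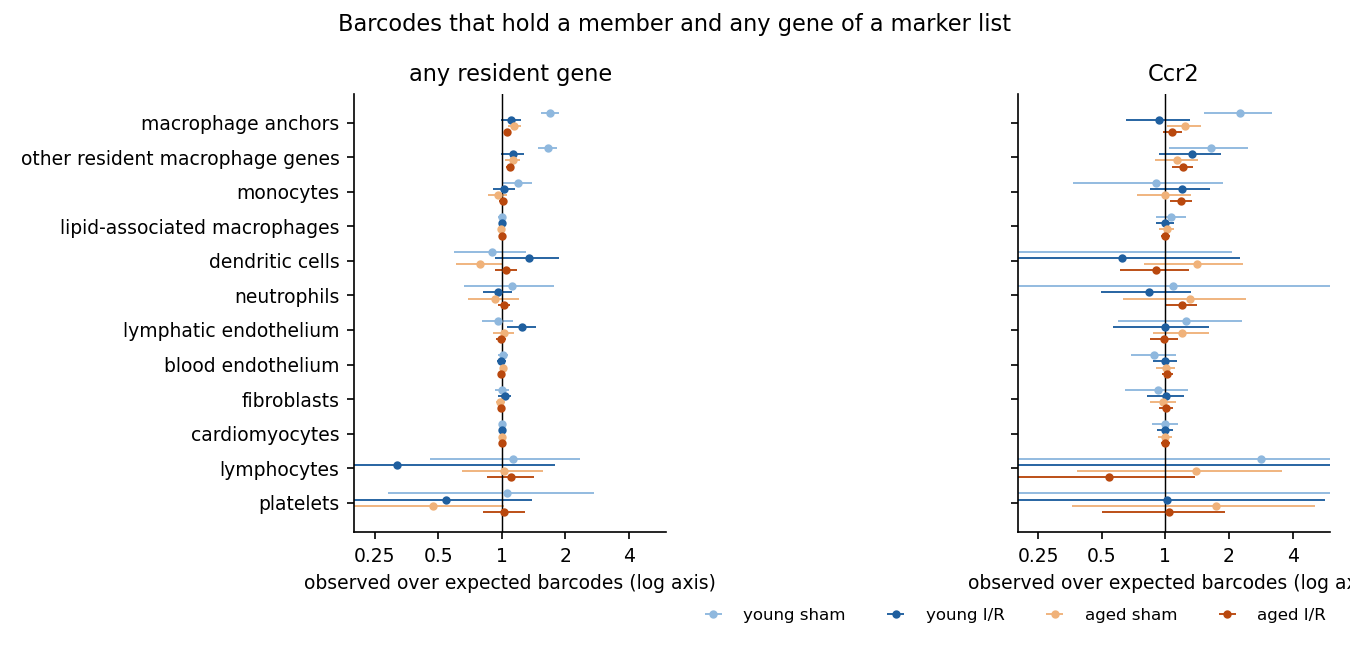
Observed over expected number of barcodes that hold any resident gene (left) or Ccr2 (right) together with any gene of each marker list, on a log axis with 95% Poisson intervals. Values of 0 are not drawn and long intervals run past the axis; the anchors and the other resident macrophage genes lay furthest above 1 in young sham (1.70 and 1.65 for any resident gene, 2.25 and 1.64 for Ccr2).

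Genes outside the fixed lists that shared barcodes with any resident gene were ranked by the lower bound of the ratio over the 4 libraries, among the 1135 genes with a ratio above 1 in each library and at least 20 shared barcodes. In single libraries 5.04%, 2.11%, 2.47% and 2.3% of the genes tested had a lower bound above 1. The first was the predicted gene Gm43623, in 20 barcodes, with a ratio of 2.29 (1.40 to 3.53). Hpgds, the haematopoietic prostaglandin D synthase, was found in 372 barcodes against 253 expected, a ratio of 1.47 (1.32 to 1.63). The other 13 of the leading 15 were, in order, the leukocyte inhibitory receptor Lair1 (1.52), the endosomal RNA sensor Tlr7 (1.67), Gm10134 (1.66), Adam33 (1.59), Fgd2 (1.45), the adaptor Dok2 (1.54), Arhgap45 (1.41), C130026I21Rik (1.49), Cyth4 (1.35), F630028O10Rik (1.40), the phospholipase-family gene Pld4 (1.36), the sialic acid receptor Siglec1 (1.55) and the immunoreceptor Lilr4b (1.32).

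The leading genes of each member, ranked in the same way, differed widely in their number of shared barcodes, with Amz1 found with Mrc1 in 20 and F13a1 in 523. For Mrc1 they were Amz1, Hpgds, Dok2, F13a1 and Pirb, and for F13a1 Lair1, Ms4a8a, Dok2, Epsti1 and Pld4. For Cd163 they included Unc93b1, Cd33, C1qc and Mrc1, and for Csf1r Tmem273, Inka1, Cyth4 and Pld4. Ccr2 was found with Cd86, a costimulatory molecule of antigen-presenting cells (2.68, 1.70 to 4.02, 23 barcodes), Arhgap45 (1.94, 70 barcodes), Ciita, the master regulator of MHC class II genes (2.28, 20 barcodes), Ncf1 (1.90) and Fyb (1.63). For Mertk they were Trpv2, Slc37a2, Pik3cg, Mctp1 and Cd86. The leading genes of Lyve1 (Kif3c, Cry1, Mid1, Ston1 and Axin1), Folr2 (Abhd4, Glrx, Bin1, Retreg2 and Gpm6b), Trem2 (Chmp7, Sgk3, Smg6, Arhgef1 and Ciz1) and Timd4 (Hnrnpa2b1, Sparcl1, Rpl4 and Ldha) rested on 20 to 56 shared barcodes each. For Lyve1 1.76%, 1.48%, 1.99% and 1.97% of the genes tested were above expectation and 1.60%, 1.46%, 1.67% and 1.62% below. For Timd4 more were below than above in every library, and for Folr2 and Trem2 the order differed between libraries. These leading genes were picked as the highest of many, and their link to the members was not tested.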

How the data were processed

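Single-cell libraries were made from left ventricle with a 10x Genomics 3′ kit, and per the labels the reads were processed with Cell Ranger 6.0.2 on mm10 (GRCm38). Whether intronic reads were counted is not given in the sources used here. As deposited by the authors, the values are raw UMI counts per gene and barcode, with no scaling, for 92200, 102883, 100342 and 91124 barcodes (young sham and I/R, then aged sham and I/R) and 32285 genes. The barcode and gene names come from the files deposited with them.

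Counts were summed over all barcodes of a library and divided by its total (CPM). With 1 library per condition no test was run. Levels carry exact Poisson intervals, shares exact Clopper-Pearson intervals, and ratios of libraries the exact conditional interval, all at 95%. Differences of ratios carry normal intervals on the log scale. A gene with at least 20 UMIs over both libraries was called at 1.5-fold or more with an interval leaving out no change. Size factors were medians of gene-wise ratios over 13424 genes with at least 20 UMIs in every library.

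For pairs, barcodes were put into 50 strata of total UMIs, and the expected number was summed over strata under independence. Cardiomyocyte-rich barcodes were the fifth of a library with the highest share of 10 cardiomyocyte genes. Ccl21a was left out of the lymphatic list because its symbol stands for more than 1 feature. The members, the 12 marker lists and the ligand list were chosen with earlier results of these data known. Named genes were all members and, for each member, the 5 genes with the highest lower bound of observed over expected, above expectation in every library with at least 20 shared barcodes (15 genes for any resident gene). Of the genes for single members, 1 each for Cd163 and Csf1r is not reported here, nor is 1 monocyte gene. Gene positions came from GENCODE vM21, matched by gene ID for 32158 of 32285 genes, and promoter windows from RefSeq for 8 of 10 members. Scripts were run with Python 3.11.15, numpy 2.4.6, scipy 1.17.1 and pandas 2.3.3, and the ratio and pair measures were tested on simulated data. Barcodes were neither clustered nor called as cells, and doublets were not removed. Alternatives changed the scaling, the total, the barcodes kept, the strata, the fold and the resident sum.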

Additional observations from a re-analysis of the deposited data

Results flagged for a closer look

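The response to I/R pointed opposite ways in young and aged hearts for 4 members and for the resident sum, with counting intervals that left out no change on both sides. After I/R the log2 ratio was -0.58 in young and 0.51 in aged hearts for Mrc1, -0.41 and 1.17 for Cd163, -0.60 and 0.61 for F13a1, and -0.61 and 0.49 for Mertk. For the 6 resident genes together it was -0.54 in young and 0.66 in aged hearts. Each age had 1 library per condition, and the difference was not tested. The median over all genes was -0.51 in young and 0.09 in aged hearts, and opposite signs were not counted over all genes. Sums of cardiomyocyte genes (-0.26 and 0.41) and lymphatic genes, mostly Prox1 (-0.75 and 0.24), also had opposite signs. Those of fibroblast genes (-0.43 and -0.07) and blood endothelial genes (-0.16 and -0.15) did not. The sum of 12 other resident macrophage genes was at -0.82 in young and 0.05 in aged hearts. With size factors the young values were -0.11, 0.06, -0.13 and -0.14 for Mrc1, Cd163, F13a1 and Mertk, so that Cd163 no longer pointed down and the interval of Mertk (-0.31 to 0.02) included no change.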

How the results depend on the processing

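No paired analysis was possible because each condition had a single library. Of 176 values recomputed for 32 results, 131 stayed within the counting interval or within 1.5 times the count, and 45 moved. A change of direction could be scored only for log2 ratios and pair ratios whose interval left out no change, and 0 were found. The ratios of Ccr2 pairs had intervals that included 1. In young sham that ratio went from 1.08 to 0.73 in barcodes with at least 200 detected genes, which was counted as staying. Among single members in young hearts, size factors took Cd163 from -0.41 to 0.06, Lyve1 from -0.08 to 0.39 (0.20 to 0.58) and Trem2 from -0.11 to 0.36 (-0.07 to 0.80). In aged hearts they took Timd4 from 0.08 to -0.02 and Trem2 from 0.07 to -0.02. The values without the 1% of barcodes with the most UMIs all stayed for the 32 results. With 200 depth strata, or thinned to 200 UMIs, only the 8 pair ratios were recomputed, and all of them stayed. With size factors the resident log2 ratio was -0.072 for young I/R over young sham, 0.56 for aged I/R over aged sham, -0.069 for aged sham over young sham and 0.57 for aged I/R over young I/R, and that of Ccr2 was 1.09 for young I/R over young sham and 0.47 for aged I/R over young I/R. Lower members were then 2 in young I/R over young sham and 1 in aged sham over young sham, and higher members 4 in aged I/R over young I/R. Of all genes, 3491 of 15465 and 1853 of 15875 were then lower and 2943 of 16491 higher, in that order. Without Gm42418, Malat1 and mitochondrial genes in the total the resident ratios were -0.40, 0.56, -0.14 and 0.82 in the same order of comparisons. Ccr2 was then at 0.72 for aged I/R over young I/R, and 3 members were lower in young I/R over young sham, where 5629 of 15465 genes were. In barcodes with at least 200 detected genes the resident ratio was -0.46 for young I/R over young sham and -0.13 for aged sham over young sham. No member (0) was then lower in aged sham over young sham, where 3376 of 15121 genes were, and young sham had 691 resident UMIs per 1000 anchor UMIs. Without barcode sequences found in more than 1 library, 0 members were higher in young I/R over young sham, 0 lower in aged I/R over aged sham and 1 lower in aged sham over young sham. Over all genes these counts were 830 of 15309, 1342 of 16617 and 2773 of 15709. At a fold of 2, young I/R over young sham had 0 higher and 3 lower members, aged I/R over aged sham 0 lower, aged sham over young sham 0 higher and 0 lower, and aged I/R over young I/R 4 higher. Over all genes, 471 of 15465 were higher and 4095 lower in the first of these and 471 of 16761 were lower in the next. In aged sham over young sham 487 of 15875 were higher and 1090 lower, and in aged I/R over young I/R 3333 of 16491 were higher. Leaving Mrc1 out of the sum gave a resident ratio of 0.73 for aged I/R over aged sham. It gave 8.67, 19.1, 19.9 and 17.4 Ccr2 UMIs per 100 resident UMIs and 417, 381, 242 and 451 resident UMIs per 1000 anchor UMIs, in the order young sham and I/R, aged sham and I/R. Leaving F13a1 out gave 9.16, 19.9, 21.1 and 19.0 and 395, 365, 229 and 412; a smaller sum raises the Ccr2 values and lowers those per anchor UMI by construction. The cause of the other moves was not tested. Timd4 and Trem2 rested on 20 to 92 and 78 to 367 UMIs a library, and Ccr2 pairs on 10 barcodes in young sham.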
